A study of Mus musculus with 6 samples.

Results

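Guanylate-binding proteins (GBPs) and immunity-related GTPases (IRGs) were examined in splenic CD8 T cells through 10 genes given by name: Gbp2, Gbp3, Gbp4, Gbp5, Gbp6, Gbp7, Gbp8, Gbp9, Igtp and Irgm1. All 10 were found among the 17744 genes of the deposited table. They were chosen by identity, with no measured value in the rule. The study sorted CD45+ CD3+ CD8a+ cells from mouse spleen and sequenced their RNA in 6 libraries. The 3 control libraries are labelled as wild type with no treatment. The 3 others, here called ultrasound libraries, are labelled with focused ultrasound irradiation in both the treatment and the genotype field. Focused ultrasound concentrates sound waves on a tissue, and the series title names the spleen as the target and the activation of immune function as the question. Strain, age, ultrasound dose and the interval between treatment and sorting are not given in the sources used here. Nothing in the labels says that the 3 libraries of a group came from separate animals, so p-values measure the spread between these libraries, which may be technical.

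Interferon gamma, secreted by T cells and NK cells, binds a receptor of the chains Ifngr1 and Ifngr2, and the kinases Jak1 and Jak2 then pass the signal to the nucleus. The transcription factor Irf1 is induced there and acts on the promoters of GBP and IRG genes. The encoded GTPases assemble on membranes of vacuoles that hold intracellular parasites and bacteria and help to disrupt them. Igtp and Irgm1 are regulatory IRGs that sit on the cell's own membranes, and Irgm1 is also known for its part in autophagy and in the survival of activated T cells. GBP and IRG transcripts are widely used as a readout of interferon exposure in T cells, macrophages and B cells alike.

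The genes lie in 3 places of the mouse genome (build mm10, GRCm38), and all are protein-coding. Gbp5 (NCBI Gene 229898, chr3:142496934-142522344), Gbp7 (229900, chr3:142530336-142550151), Gbp3 (55932, chr3:142560016-142573213) and Gbp2 (14469, chr3:142620663-142638008) are neighbours on chromosome 3. Gbp8 (76074, chr5:105012513-105053609), Gbp9 (236573, chr5:105076464-105110357), Gbp4 (17472, chr5:105115767-105139586) and Gbp6 (100702, chr5:105270702-105295871) form a second cluster on chromosome 5. Irgm1 (15944, chr11:48865245-48871420) and Igtp (16145, chr11:58199556-58207592) lie apart on chromosome 11. Of the 10 genes, 6 had an entry in the RefSeq promoter table (GRCm38.p6), which holds windows of 300 bases around gene starts. Gbp4, Gbp6, Gbp8 and Gbp9 had none.

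Promoter stretches are shown because the 6 matched genes share an interferon-responsive element. The genes are known targets of interferon gamma, so its presence was likely beforehand and is no result of these libraries. The core of the interferon-stimulated response element was searched on both strands as GAAA followed by any 2 bases and another GAAA, which reads TTTC, any 2 bases and TTTC on the opposite strand. All 6 matched genes held it, against 3.44% of 32851 promoter windows. Capitals mark the core, matches that overlap are joined, and each stretch is written 5′ to 3′ on the gene's strand and ends before the annotated gene start.
Gbp2: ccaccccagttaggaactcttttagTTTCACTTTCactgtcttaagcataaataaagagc
Gbp3: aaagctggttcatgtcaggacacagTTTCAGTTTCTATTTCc
Gbp5: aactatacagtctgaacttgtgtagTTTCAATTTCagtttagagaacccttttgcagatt
Gbp7: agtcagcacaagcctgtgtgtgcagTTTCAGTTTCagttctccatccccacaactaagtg
Igtp: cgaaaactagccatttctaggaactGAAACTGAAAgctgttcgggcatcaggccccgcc
Irgm1: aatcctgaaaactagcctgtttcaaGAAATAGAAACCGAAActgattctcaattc
The stretches lie at chr3:142620579-142620638 for Gbp2, chr3:142559974-142560015 for Gbp3, chr3:142496744-142496803 for Gbp5, chr3:142530258-142530317 for Gbp7 and chr11:58199497-58199555 for Igtp, all on the plus strand, and at chr11:48871421-48871475 on the minus strand for Irgm1. The first core began 59 bases before the gene start of Gbp2, 17 before Gbp3, 53 before Gbp7, 34 before Igtp and 30 before Irgm1, and 165 before Gbp5. The gamma-activated site was searched as TTCNNNGAA, whose reverse complement has the same form, and was found in the windows of 3 of the 6 genes (Gbp5, Gbp7 and Igtp), against 8.3% of all windows. A match of letters is a description of the sequence and shows no binding.

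Whole reads recovered from the deposited values numbered 35024080 to 38113103 per library, and each of the 10 genes had between 1731 and 11235 reads in every library. Counting noise did not account for the difference of any of the 15 pairs of libraries, the closest of which had a chi-square of 20.5 per degree of freedom. The 9 listed CD8 T cell genes summed to between 2833 and 2977 FPKM (fragments scaled by transcript length and library size) in controls and between 2457 and 3004 in ultrasound libraries. Among them Cd8a and Cd8b1 encode the CD8 chains, and the others are not particular to CD8 T cells. Ptprc, which encodes CD45, is shared with other leukocytes, so the sum is no measure of T cells alone. The 5 CD4 T cell markers summed to 73.4, 93.2 and 108.8 FPKM in control 1, 2 and 3 and to 116.7, 105.9 and 138.2 in ultrasound 1, 2 and 3, with none called. Markers of other cells were present in every library and differed between them. The 14 macrophage and monocyte markers summed to 963, 482 and 443 FPKM in control 1, 2 and 3 and to 2200, 2186 and 3636 in ultrasound 1, 2 and 3. Of the 14, 6 rose by limma (adjusted p under 0.05), with none lower, where 6.55% of all tested genes rose. The 10 neutrophil markers summed to 577, 189 and 194 in the controls and to 2320, 649 and 682 in the ultrasound libraries, with 3 called higher. The 8 B cell markers in the table summed to 369, 239 and 236 in the controls and to 177, 933 and 811 in the ultrasound libraries, with none called. The 6 NK cell markers summed to 56.8, 61.6 and 66.4 in the controls and to 45.4, 232.4 and 126.1 in the ultrasound libraries, with 1 of 5 tested (Klrb1c, log2 change 1.70, limma adjusted p 0.0297) called higher. No CD4 T cell, macrophage, neutrophil, B cell or NK cell marker in the table was at 0 in any library. In bulk RNA a change in the number of cells of a type and a change in RNA per cell cannot be told apart. Ultrasound 1 differed from ultrasound 2 and 3: limma called 864 of 10655 tested genes with all libraries and 5727 without ultrasound 1. Each result on the 10 genes is therefore given with and without it.

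All 10 genes were well expressed in the control libraries, which also held markers of cells other than CD8 T cells. Igtp was the most abundant, at 101.6 ± 3.33 FPKM in controls (SD, n = 3). Gbp2, Gbp4, Irgm1 and Gbp9 followed at 59.2, 58.9, 57.3 and 54.4 FPKM, and each of these overlapped its neighbour in the order, so their order is not resolved. Gbp8 (32.2), Gbp6 (28.8) and Gbp7 (23.7) each stood clear of the next gene, while Gbp3 (18.77) and Gbp5 (18.01) overlapped each other. By mean in ultrasound libraries Igtp was again highest and Gbp6 lowest, where Gbp6 ranked 7 of 10 in controls. Gbp6 and Gbp7 overlapped in the ultrasound libraries (14.82 to 21.99 and 14.93 to 26.15 FPKM), so which of them was lowest is not resolved.

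Over the comparison of ultrasound with control libraries, 1 of the 10 genes passed an adjusted p of 0.05 (limma on log2(FPKM + 1), Benjamini-Hochberg over all 10655 genes), and it was lower. The background is 8.11% of all tested genes in either direction and 1.56% lower, so 1 of 10 is a share near the background. The median log2 change over the 10 genes was -0.21, beside 0.09 over all tested genes. By sign, 7 of the 10 were negative. With median-of-ratios scaling the median of all genes moved to -0.02, that of the 10 genes to -0.33 with 7 negative, and the split of called genes from 698 higher and 166 lower to 281 and 187. The ultrasound and control values did not overlap for 3 of the 10, all lower (Gbp4, Gbp6 and Gbp9), where 34.8% of tested genes did not overlap in either direction, 8.96% being lower and 25.9% higher. Reads on the 10 genes together took 0.170%, 0.161% and 0.164% of the library in the controls, 0.163% in ultrasound 1, and 0.120% and 0.133% in ultrasound 2 and 3.

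**Figure D1:**
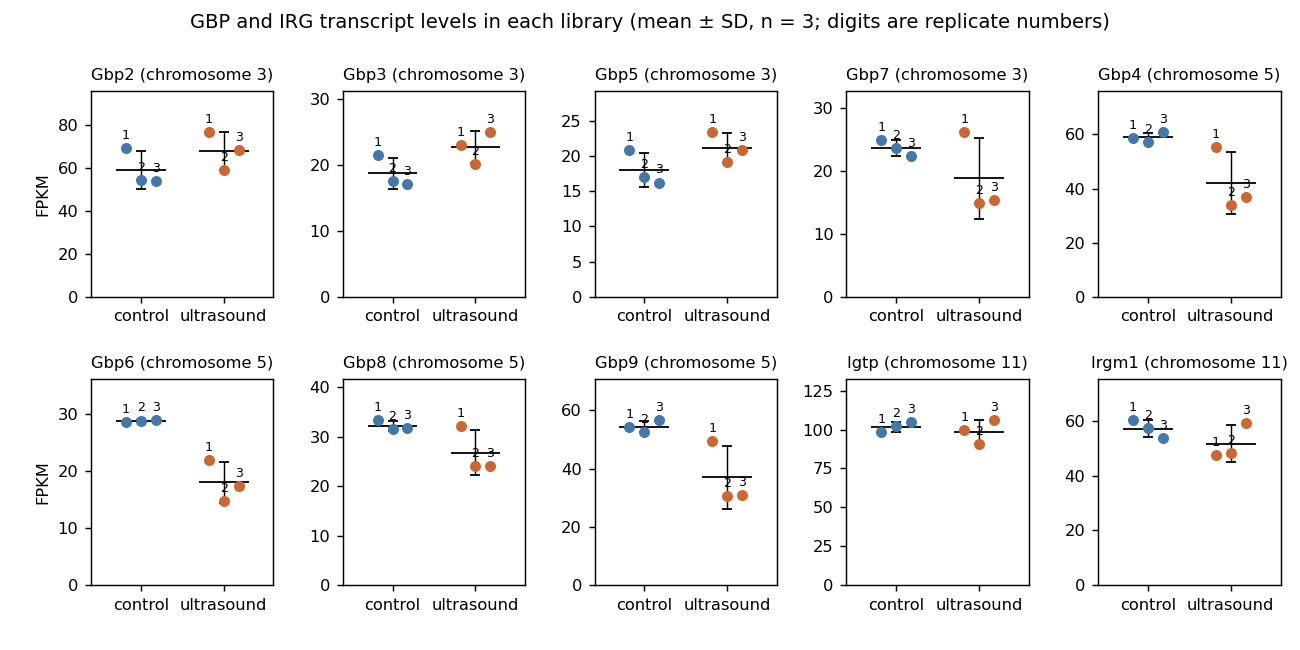
FPKM of each of the 10 genes in every library (y axis, linear from 0), with controls in blue and ultrasound libraries in orange. Digits are replicate numbers, and bars are mean ± SD (n = 3). Gbp6 lies at 28.61 to 28.97 FPKM in controls and 14.82 to 21.99 in ultrasound libraries, while Igtp overlaps between groups.

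Gbp6, one of the GBPs linked to defence against intracellular bacteria, was the gene that fell. It had 28.61, 28.94 and 28.97 FPKM in control 1, 2 and 3, and 21.99, 14.82 and 17.36 in ultrasound 1, 2 and 3. The controls were nearly equal, all 3 ultrasound libraries lay below them, and ultrasound 1 was the highest of the 3. The mean went from 28.8 ± 0.199 to 18.1 ± 3.63 FPKM (SD, n = 3 each), a log2 change of -0.66 (SE 0.14) with a limma adjusted p of 0.0413. The call was lost when any one of the libraries other than ultrasound 1 was left out. Over 15 alternatives the log2 change ran from -0.81 to -0.38 and the adjusted p from 0.000535 to 0.176, and 7 of the 15 passed. The authors' deposited table gives Gbp6 a log2 fold change of -0.80 with a q of 0.000535.

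The level of Gbp6 carries an uncertainty of its own. Of the stretches of 50 bases in its GENCODE M21 transcripts, 70.7% also occur in transcripts of other genes. Gm43302, a gene model not analysed here, holds 65.0% of them and Gbp10, a near copy on the same chromosome, 45.9%. Reads from one may have been assigned to the other or dropped, depending on counting options not given in the sources used here. Among the other 9 genes the shared part was smaller: 18.1% for Gbp8, 12.7% for Gbp7, 11.8% for Igtp (all of it with Irgm2), 8.05% for Gbp9, 7.78% for Gbp4, 3.75% for Gbp3, 2.03% for Gbp2, 1.44% for Gbp5 and 0.379% for Irgm1.

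The other genes of the chromosome 5 cluster did not pass the test with all libraries, and each was lower in ultrasound 2 and 3 than in every control. Gbp9 had 54.2, 52.5 and 56.6 FPKM in the controls, against 49.4, 30.6 and 30.9 in ultrasound 1, 2 and 3. Ultrasound 1 lay just under the lowest control and the other ultrasound libraries well under it (log2 change -0.58, SE 0.19, limma adjusted p 0.0972). Gbp4 had 58.5, 57.3 and 60.8 FPKM in the controls and 55.2, 34.0 and 37.0 in the ultrasound libraries. Its pattern had the same shape, with ultrasound 1 close to the controls (log2 change -0.51, SE 0.18, limma adjusted p 0.114). Gbp8 had 33.3, 31.5 and 31.8 FPKM in the controls and 32.1, 24.2 and 24.1 in the ultrasound libraries. Here ultrasound 1 lay within the controls (log2 change -0.27, SE 0.13, limma adjusted p 0.192). In the authors' deposited table Gbp4, Gbp6 and Gbp9 have q under 0.05, with 0.0438 for Gbp4 and 0.0263 for Gbp9, where 12.3% of the 17744 genes have such a q and 4.98% have it and are lower. The 17744 include low genes outside the 10655 tested by limma, and the share among those 10655 was not computed.

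None of the 4 chromosome 3 genes passed, and their log2 changes had both signs. Gbp7, which takes part in assembling the phagocyte oxidase on vacuoles, had 24.9, 23.6 and 22.4 FPKM in the controls, against 26.2, 14.9 and 15.3 in ultrasound 1, 2 and 3. Ultrasound 1 was above every control and ultrasound 2 and 3 were below every control, so the mean change (log2 -0.36, SE 0.21, limma adjusted p 0.264) describes none of the 3 libraries. Gbp2, a prenylated GBP that coats parasite vacuoles, had 69.5, 54.3 and 53.8 FPKM in the controls and 76.7, 59.2 and 68.2 in the ultrasound libraries. Its groups overlapped, because control 1 lay above ultrasound 2 and 3 (log2 change 0.20, SE 0.14, limma adjusted p 0.350). Gbp3 had 21.5, 17.6 and 17.2 FPKM in the controls and 23.13, 20.12 and 25.01 in the ultrasound libraries, overlapping at control 1 (log2 change 0.27, SE 0.12, limma adjusted p 0.191). Gbp5, a prenylated GBP known for promoting assembly of the NLRP3 inflammasome, had 20.8, 17.0 and 16.2 FPKM in the controls and 23.4, 19.1 and 20.9 in the ultrasound libraries (log2 change 0.22, SE 0.12, limma adjusted p 0.254). For these 3 genes control 1 was the highest control and ultrasound 1 was above every control. Control 1 was also the control with the highest macrophage, neutrophil and B cell marker sums (963, 577 and 369 FPKM) and the lowest NK cell sum (56.8). Ultrasound 1 had the highest neutrophil sum (2320) and the lowest B cell sum (177) of all libraries. Control 1 was above ultrasound 2 for all 3 genes, at macrophage sums of 963 and 2186. The part of these cells in the levels of Gbp2, Gbp3 and Gbp5 was not tested.

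Neither IRG gene passed. Igtp had 98.1, 102.0 and 104.7 FPKM in the controls, against 99.4, 90.6 and 105.9 in ultrasound 1, 2 and 3. Its groups overlapped, with a log2 change of -0.04 and a 95% confidence interval from -0.26 to 0.17 (limma adjusted p 0.751). Irgm1 had 60.3, 57.5 and 53.9 FPKM in the controls and 47.6, 48.3 and 59.5 in the ultrasound libraries. Ultrasound 3 lay within the controls and ultrasound 1 and 2 below them, with a log2 change of -0.15 and an interval from -0.41 to 0.12 (limma adjusted p 0.376). The intervals bound the mean change at these 6 libraries and do not show that the levels were equal.

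Without ultrasound 1, 5 of the 10 genes passed, all lower, and the background was far higher too: 53.7% of tested genes passed there and 19.7% were lower. The 5 were Gbp9 (log2 change -0.80, limma adjusted p 0.000344), Gbp4 (-0.71, 0.000510), Gbp6 (-0.81, 0.000547), Gbp7 (-0.61, 0.000878) and Gbp8 (-0.40, 0.00236). Gbp2, Gbp3, Gbp5, Igtp and Irgm1 did not pass, at adjusted p from 0.132 to 0.626. In ultrasound 1 alone, 4 genes lay below every control (Gbp4, Gbp6, Gbp9 and Irgm1) and 4 above (Gbp2, Gbp3, Gbp5 and Gbp7), where 23.1% and 44.6% of all tested genes did. A limma fit with ultrasound 1 as an arm of its own takes its spread from the controls and from ultrasound 2 and 3, and assumes that the lone library varies as they do. It called 1.41% of tested genes and none of the 10, and with 1 library in the arm this says nothing of whether they differed there. Ultrasound 2 and 3 lay together below every control for 5 genes, against 27.4% of tested genes, and above every control for none, against 45.9%.

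**Figure D2:**
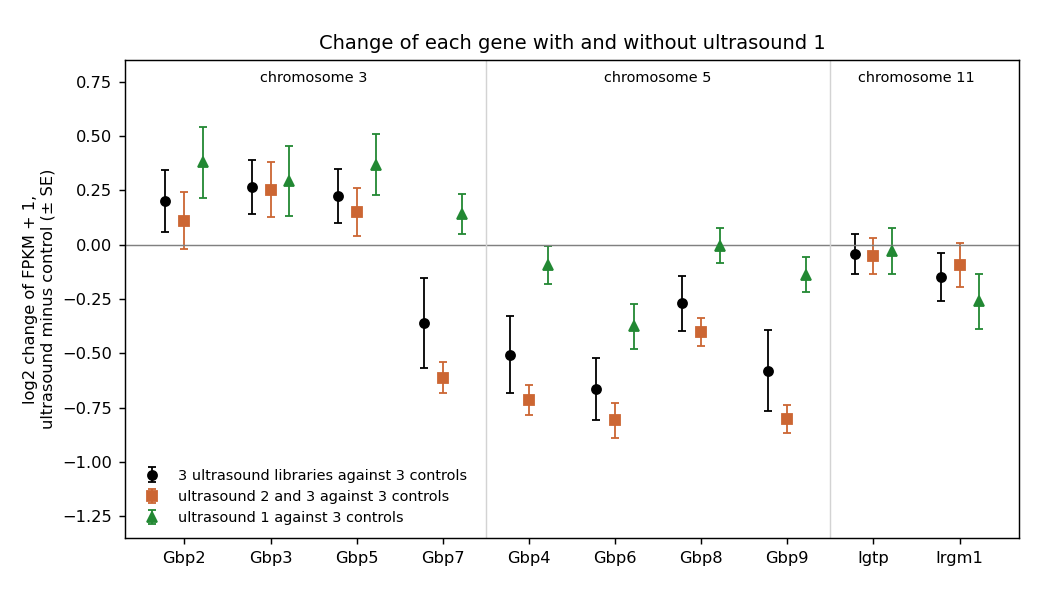
Log2 change of FPKM + 1 (y axis, ± SE) for each gene from limma, for all ultrasound libraries (black), ultrasound 2 and 3 (orange) and ultrasound 1 alone (green) against the 3 controls. The 4 chromosome 5 genes and Gbp7 sit between -0.40 and -0.81 in ultrasound 2 and 3, and ultrasound 1 lies closer to 0 or, for Gbp7, above it at 0.14.

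Comparisons between 2 genes inside one library do not depend on how libraries are scaled, apart from the pseudocount. The mean log2(FPKM + 1) of the 4 chromosome 5 genes exceeded that of the 4 chromosome 3 genes by 0.47, 0.68 and 0.78 in control 1, 2 and 3, and by 0.20, 0.03 and -0.05 in ultrasound 1, 2 and 3. The groups did not overlap, and ultrasound 1 again lay nearest to the controls. This contrast of chromosomes was not planned and carries no test. The share of such contrasts without overlap was not computed, and for single tested genes it was 34.8%. Pairs of single genes were picked after their values were seen and carry no test. Gbp6 exceeded Gbp3 by 0.40 to 0.72 in controls and lay from 0.07 to 0.50 below it in ultrasound libraries (differences of -0.07, -0.42 and -0.50). Gbp7 exceeded Gbp5, its neighbour on the chromosome, by 0.25 to 0.45 in controls, by 0.15 in ultrasound 1, and was lower than Gbp5 in ultrasound 2 and 3 (-0.34 and -0.42). Within the chromosome 5 cluster Gbp6 moved away from Gbp8: the difference was -0.21 to -0.12 in controls and -0.67 to -0.45 in ultrasound libraries. Gbp9 and Gbp4 differed least, with -0.12 to -0.10 in controls and -0.25 to -0.15 in ultrasound libraries, again without overlap. Igtp minus Irgm1 overlapped between the groups (0.69 to 0.95 and 0.82 to 1.05).

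**Figure D3:**
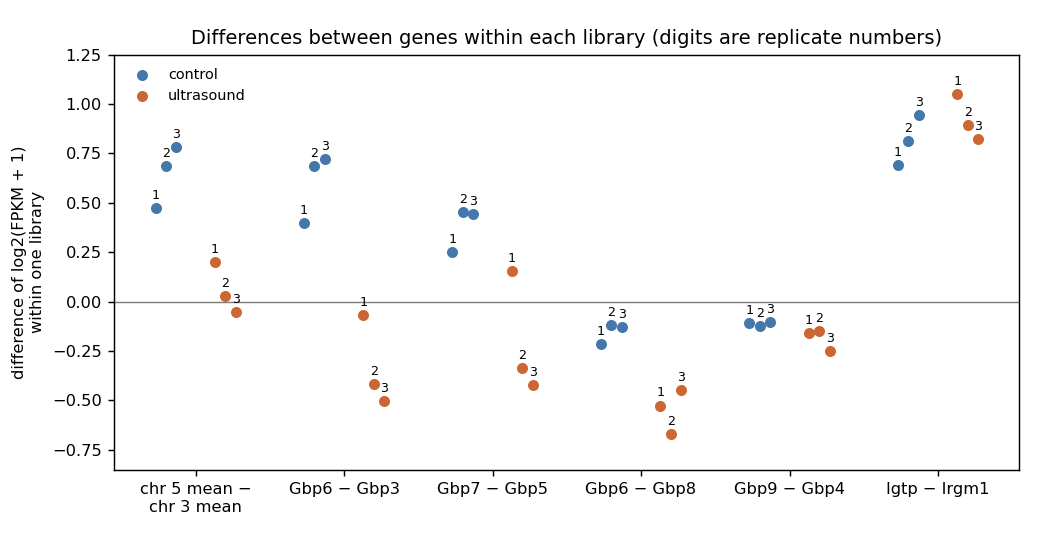
Difference of log2(FPKM + 1) between genes within each library (y axis), with controls in blue, ultrasound libraries in orange and digits for replicate numbers. The mean of the chromosome 5 genes minus that of the chromosome 3 genes is 0.47 to 0.78 in controls and -0.05 to 0.20 in ultrasound libraries, while Igtp minus Irgm1 overlaps.

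How the genes varied over the 6 libraries rests on the same values and is no separate evidence. It is given as Pearson's r of log2(FPKM + 1) without a test, since all points share library and group. The 6 pairs of chromosome 5 genes had r from 0.909 to 0.995 (median 0.968). Gbp7, although on chromosome 3, followed them, with r from 0.84 to 0.98. Its r with Gbp2, Gbp3 and Gbp5 was 0.16, -0.27 and 0.05, so the patterns do not divide by chromosome. Gbp2, Gbp3 and Gbp5 followed each other (0.88 to 0.98) and not the chromosome 5 genes, with r from -0.55 to 0.03 over 12 pairs. Over 5503 other genes of at least 10 FPKM, the 5 whose pattern was most like the mean standardised level of the 10 GTPase genes were Ccrl2 (an atypical chemokine receptor, r 0.98), Ndufa1 (a subunit of respiratory complex I, 0.97), Nmi (an interferon-inducible gene, 0.96), the chemokine gene Cxcl2 (0.96) and Abhd17b (0.95). That mean blends the 2 patterns. Taken against the 4 chromosome 5 genes alone, a choice made after the values were seen, the 5 nearest were Cks2, Tial1, Klf6, Rpl36al and Rnf2, with r from 0.9946 to 0.9969, led by Cks2 with 44.9, 46.1 and 46.9 FPKM in controls and 37.6, 19.5 and 20.5 in ultrasound 1, 2 and 3.

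Of 23 further genes listed, GBP and IRG genes with related GTPase genes such as Gvin1, 16 were in the table and 11 were tested, and 2 fell while none rose. No gene of this list passed when any one library other than ultrasound 1 was left out. Without ultrasound 1, 9 of the 11 passed, where 53.7% of all tested genes did. The fallers were Gbp10 and 9930111J21Rik1, an IRG gene of chromosome 11, where 1.56% of all tested genes were lower. Gbp10, the near copy of Gbp6, had 8.34, 8.23 and 10.1 FPKM in the controls and 5.28, 5.78 and 5.26 in the ultrasound libraries. Ultrasound 1 was as low as the others here, which differs in shape from Gbp6 (log2 change -0.61, SE 0.11, limma adjusted p 0.0312). However, 84.1% of the stretches of 50 bases in Gbp10 transcripts also occur in other genes, and 73.3% occur in Gbp6. Reads of Gbp10 and Gbp6 may therefore not be separated, so their calls and shapes may not be those of separate genes. 9930111J21Rik1 had 7.22, 8.80 and 6.97 FPKM in the controls and 5.54, 4.74 and 4.31 in the ultrasound libraries (log2 change -0.56, limma adjusted p 0.0470). Irgm2, the third regulatory IRG and the neighbour of Igtp, was above every control in all ultrasound libraries, at 20.7, 21.3 and 27.2 against 16.5, 17.5 and 18.4 FPKM, without passing (log2 change 0.37, limma adjusted p 0.103). Irgm2 minus Irgm1 within a library was -1.81 to -1.50 in controls and -1.17 to -1.10 in ultrasound libraries. Of the effector IRGs, Iigp1 had 19.1, 18.7 and 19.9 FPKM in the controls and 20.6, 10.9 and 11.9 in the ultrasound libraries, the same shape as Gbp7 (limma adjusted p 0.214). Tgtp1 and its near copy Tgtp2 had log2 changes of -0.11 and 0.16, with adjusted p of 0.402 and 0.517. The remaining tested genes were Gm5431 (log2 change 0.91, limma adjusted p 0.0527), Gm12185 (-0.34, 0.106), Irgq (0.29, 0.201), Gvin1 (-0.27, 0.429) and Gm4841 (-0.21, 0.474).

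Upstream of the GTPases, the ligand and the transcription factor Irf1 fell. Of 16 genes of the interferon gamma ligand, receptor and signalling list, 2 were called lower and none higher. Of all tested genes, 1.56% were lower and 6.55% higher. Ifng, the gene of interferon gamma itself, had 34.8, 37.5 and 49.7 FPKM in the controls, against 18.3, 9.39 and 12.1 in ultrasound 1, 2 and 3 (log2 change -1.58, SE 0.24, limma adjusted p 0.0304). Irf1 had 191.7, 193.6 and 194.1 FPKM in the controls and 130.2, 107.3 and 125.5 in the ultrasound libraries, so that the lowest control stood well above the highest ultrasound library (log2 change -0.67, SE 0.10, limma adjusted p 0.0304). Both calls were lost when control 2, control 3, ultrasound 2 or ultrasound 3 was left out, where no gene of the whole table passed. Without ultrasound 1, 10 of the 16 passed, where 53.7% of all tested genes did. The kinases Jak1 (-0.21) and Jak2 (-0.24) had limma adjusted p of 0.199 and 0.190. In the authors' deposited table their q is 0.00893 and 0.0474. There 7 of the 16 have q under 0.05, where 12.3% of all 17744 genes do. The receptor chains pointed the other way without passing: Ifngr1 had a mean of 124.8 FPKM in controls and 172.4 in ultrasound libraries (log2 change 0.46, limma adjusted p 0.0578), and Ifngr2 had means of 22.4 and 32.1 (log2 change 0.49, limma adjusted p 0.110). Macrophages carry both receptor chains, and their markers were higher in the same libraries (443 to 963 FPKM summed in controls, 2186 to 3636 in ultrasound libraries). Their part in the receptor levels was not tested.

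Of 24 tested interferon gamma targets that are not GTPases, 1 rose and none fell, against 6.55% of all tested genes higher, and the list median was 0.23. The one was Fcgr1, a macrophage Fc receptor, with 3.55, 2.11 and 1.62 FPKM in the controls and 6.51, 7.97 and 18.7 in the ultrasound libraries (log2 change 1.72, limma adjusted p 0.0450). The call was lost with median-of-ratios or upper-quartile scaling, with voom, and without any one library other than ultrasound 1. The direction of Fcgr1 is that of the macrophage markers (6 of 14 higher), whose part was not tested. Without ultrasound 1, 16 of the 24 targets passed, where 53.7% of all tested genes did. By the mean over all 6 libraries the 2 most abundant genes of the list were the class I light chain B2m and the class I heavy chain H2-K1, with log2 changes of 0.05 and 0.06 and adjusted p of 0.704 and 0.638. Cd74, the class II invariant chain, was close behind H2-K1 and is named after its values were seen: it had 1563, 796 and 805 FPKM in the controls and 824, 3013 and 2731 in the ultrasound libraries (log2 change 0.92, limma adjusted p 0.262). B cells express Cd74, and their summed markers were likewise highest in ultrasound 2 and 3 (933 and 811 FPKM). So were the 9 dendritic cell markers, which summed to 123.9, 97.2 and 109.3 FPKM in the controls. In ultrasound 1, 2 and 3 they summed to 89.2, 156.1 and 161.9. The part of these cells was not tested. Of 23 type I interferon targets tested, none passed limma, with a median log2 change of 0.05 and adjusted p from 0.107 to 0.977. When ultrasound 1 was left out, 53.7% of all tested genes passed, and 7 of these 23 did. Of all 17744 genes, 12.3% have q under 0.05 in the authors' deposited values, and 2 of these 23 do. The most abundant by the mean over all 6 libraries, Ifi27l2a and Irf7 (a transcription factor of the type I response), had log2 changes of 0.35 and 0.25 with limma adjusted p of 0.654 and 0.554. Among 20 genes for vacuole targeting and inflammasomes that work with GBPs and IRGs, 1 rose and none fell, against 6.55% of all tested genes higher. Gabarap, an autophagy protein of the kind that marks membranes for IRG loading, had 119.9, 101.8 and 96.9 FPKM in the controls and 141.6, 166.9 and 184.8 in the ultrasound libraries (log2 change 0.62, limma adjusted p 0.0423), and this call was lost with median-of-ratios or upper-quartile scaling and without any one library other than ultrasound 1. Map1lc3b, its relative and the next most abundant of the list, had a log2 change of -0.16 (limma adjusted p 0.257).

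**Figure D4:**
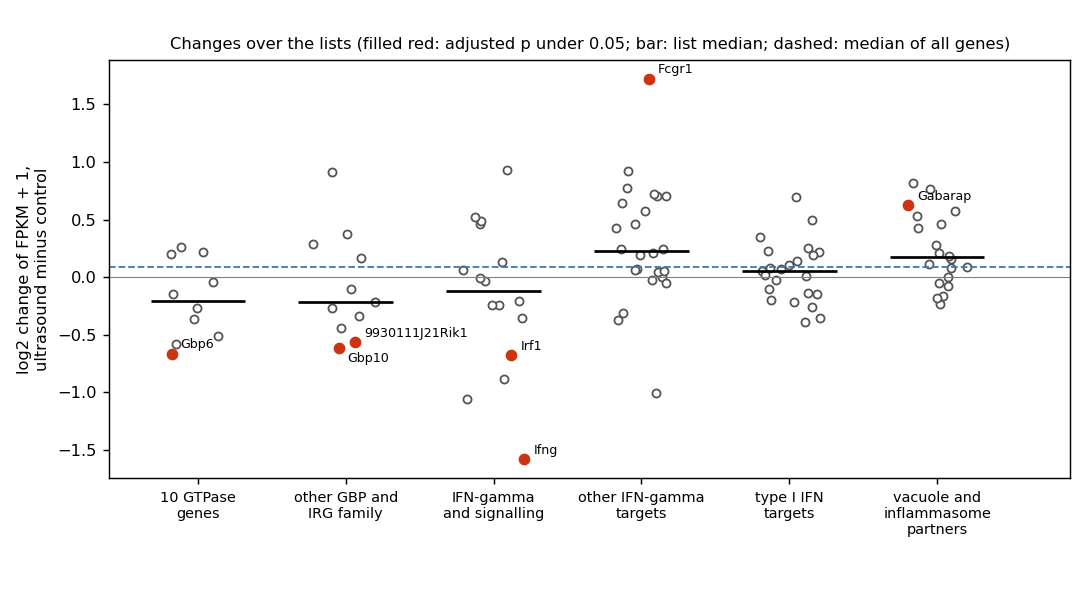
Log2 change of FPKM + 1 (y axis) of each tested gene, by list. Filled red points have an adjusted p under 0.05 and are named, bars are list medians, and the dashed line is the median of all tested genes (0.09). The 10 GTPase genes and the other family genes have medians of -0.21, and the other interferon gamma targets 0.23.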

How the data were processed

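RNA-seq of sorted splenic CD8 T cells from 3 control and 3 ultrasound libraries was used, grouped by sample titles. Per the submitters' processing notes, HISAT2, HTSeq, DESeq2 and R 3.2.0 were used with build mm10; counting options are not given in the sources used here. The authors' deposited table gives each library as FPKM. For each group it also gives a base mean, a signal on the scale of DESeq2's normalization, per the file headers. Fold change (a ratio), log2 fold change, p-value and q-value are the authors' deposited results.

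As FPKM is no count, limma 3.58.1 (trend, robust; R 4.3.3) was run on log2(FPKM + 1), keeping 10655 genes that reached an FPKM of 1 in 3 libraries or more. Tests were two-sided with Benjamini-Hochberg adjustment. Changes of low genes are understated on this scale. Whole reads were recovered from the linear relation between FPKM and the group means (largest relative deviation 2.23e-07), and 100% of 64001 values under 1000 reads lay within 0.05 of a whole number; the fit and the recovery were tested on simulated data. All 10 genes, tested family genes, pathway genes past the threshold (where fewer than 2 passed, the 2 with the highest mean FPKM over all libraries), interferon gamma, its receptor chains, Jak1, Jak2 and Irf1, and the 5 nearest patterns are named; 1 gene of the signalling list is not reported here. Genes and lists were chosen with earlier results of these data known. Positions are from RefSeq GRCm38.p6, matched by NCBI Gene identifier. Python 3.11.15 and scipy 1.17.1 were used for the rest. The alternatives covered the pseudocount (0.1), filter, scaling, robustness, replicate block, left-out libraries, voom on recovered reads and the authors' values.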

Additional observations from a re-analysis of the deposited data

How the results depend on the processing

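The count of 864 genes over the whole table became 468 with median-of-ratios size factors, 150 with a separate term for ultrasound 2 and 3 (ultrasound 1 is then the only library of its arm) and 2179 in the authors' deposited table, and 840 with voom on the recovered reads. It was 0 without a filter and 0 with the replicate block, although limma's p before adjustment was under 0.05 for 4216 and 3249 genes. Leaving out one library gave 0 to 5727 genes, 567 without control 1 and 5727 without ultrasound 1. The 4 other omissions gave 0, at unadjusted p under 0.05 in 1962 (control 2), 2154 (control 3), 2058 (ultrasound 2) and 1998 (ultrasound 3) genes. Of the 10 GTPase genes, 1 passed in the main comparison and 0 without a filter, with the replicate block or with a separate term for ultrasound 2 and 3, against 3 in the authors' deposited values. Leaving out one library gave 0 to 5 of the 10, with 5 without ultrasound 1, and 3 to 6 of the 10 without overlap between groups, with 6 without control 1, 5 without ultrasound 1 and 5 without ultrasound 2, where 43.7%, 73.4% and 38.9% of all tested genes did not overlap. Gbp7 reversed to 0.14 with a separate term for ultrasound 2 and 3, where the change is that of ultrasound 1 alone against the controls. Ultrasound 1 had 26.15 FPKM of Gbp7, above every control. Igtp reversed to 0.0148 without ultrasound 2, its lowest library at 90.63 FPKM (its range on leaving out one library was -0.0966 to 0.0148). Why these libraries differed was not tested. The other 8 genes kept their sign under each of 15 alternatives. Deviations from the group means had correlations of -0.041, 0.051 and 0.058 between control and ultrasound libraries of the same replicate number. Ultrasound 1 differed from ultrasound 2 and 3, so with 3 libraries per group these correlations cannot tell whether replicate numbers pair the libraries. The replicate block leaves each log2 change as it is in this balanced design, and under it the adjusted p of Gbp6 was 0.0963. Each of the 10 genes had at least 1731 reads in every library.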
